A study of Homo sapiens with 8 samples.

Results

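The snoRNA host genes described here were the genes with a current symbol of SNHG followed by a number, together with GAS5, ZFAS1, DANCR and EPB41L4A-AS1. They numbered 32 of 58884 genes in the table, 28 with an SNHG symbol and 4 without. RNA was sequenced from U87, an established human glioblastoma cell line, after depletion of ribosomal RNA. The 8 libraries formed 4 groups of 2. Control cells carry the label DMSO, the usual solvent control. A second group had been kept on AsiDNA for a long time, another received 1 µM belinostat for 24 h, and the last combined long-term AsiDNA with that belinostat treatment. A decoy for DNA repair proteins, AsiDNA is a short piece of DNA shaped like a double-strand break, and belinostat inhibits histone deacetylases. The labels name 2 lines of cells, MTU87 and LTAU87, without spelling out either name, and give no dose or duration for AsiDNA. If the groups with and without AsiDNA came from different lines, an effect of AsiDNA and a difference between lines cannot be told apart. They do not say whether the replicates were separate cultures, so the spread behind every p-value is that of these samples and may be technical.

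A snoRNA host gene carries small nucleolar RNAs in its introns. These are cut from the introns after splicing and guide the chemical modification of ribosomal RNA, box C/D snoRNAs the 2′-O-methylation of ribose and box H/ACA snoRNAs the formation of pseudouridine, while the related scaRNAs work on spliceosomal RNAs in Cajal bodies. The spliced exons of several hosts, GAS5 among them, begin with a pyrimidine tract like that of ribosomal protein mRNAs and are removed by nonsense-mediated decay, a surveillance pathway that depends on translation. A read count of a host covers its annotated exons and says little about the snoRNAs themselves. In some hosts the exons of all transcripts in the GENCODE 29 annotation cover most of the gene. SNHG1, for example, has 3756 exon bases between positions 62851988 and 62855914. Host counts may thus include unspliced RNA, and its part was not tested.

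Of the 32 genes, 30 had enough counts to be tested, and SNHG27 and SNHG28 had 0 counts in every library. Library totals ran from 6057394 to 9699637 counts, and before scaling 3 counts were worth 0.309 to 0.495 CPM. Levels below are TMM-scaled CPM, that is counts relative to the size of the library, and changes are log2 fold changes ± standard error from edgeR's quasi-likelihood test with 2 libraries a group, called at a Benjamini-Hochberg adjusted p under 0.05 over 14741 genes. The host genes together held 0.170% and 0.230% of all counts in the DMSO libraries and 0.165% and 0.162% in the AsiDNA libraries. They held 0.111% and 0.125% in the belinostat libraries and 0.0999% and 0.106% in the combination. DMSO replicate 2 stood apart from DMSO replicate 1. Of 21 host genes with a mean of at least 100 counts, 8 differed by more than 1.5-fold between these libraries, against 12.2% of all genes at that depth, while 0, 1 and 1 did so in the AsiDNA, belinostat and combination groups. MALAT1 and NEAT1, long noncoding RNAs that stay in the nucleus, took 2.82% of the counts in DMSO replicate 2 and 0.911% in replicate 1. They took 12.2% and 13.4% with belinostat, 0.753% and 0.688% with AsiDNA and 3.12% and 2.06% in the combination. Genes annotated as sense-intronic took 0.113% in DMSO replicate 2, 0.128% and 0.142% with belinostat and 0.044% to 0.057% in the other libraries. The part of both in the host gene and snoRNA results was not tested. CDKN2A, CDKN2B and MTAP, which lie in an interval deleted in this line, had 0 counts in all libraries. The mesenchymal markers VIM, CD44 and FN1 summed to 17900 and 21400 CPM in DMSO and 20300 and 21100 CPM with AsiDNA. Their sum was 30700 and 36200 CPM with belinostat and 39000 and 39100 CPM in the combination. The 4 astrocyte markers summed to at most 0.875 CPM, so the astrocyte markers were nearly absent. Markers of endothelium summed to 5.14 and 5.15 CPM in DMSO and 19.4 and 23.5 CPM with belinostat with CDH5 at 0, and blood cell markers to 1.75 to 3.83 CPM with CD3E at 0. Neuron markers summed to 6.77 to 23.7 CPM over the libraries, with 13.3 and 23.7 CPM in DMSO. Oligodendrocyte markers summed to 2.03 to 11.9 CPM with MOG at 0, and epithelial markers to 0.875 to 2.66 CPM.

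**Figure D1:**
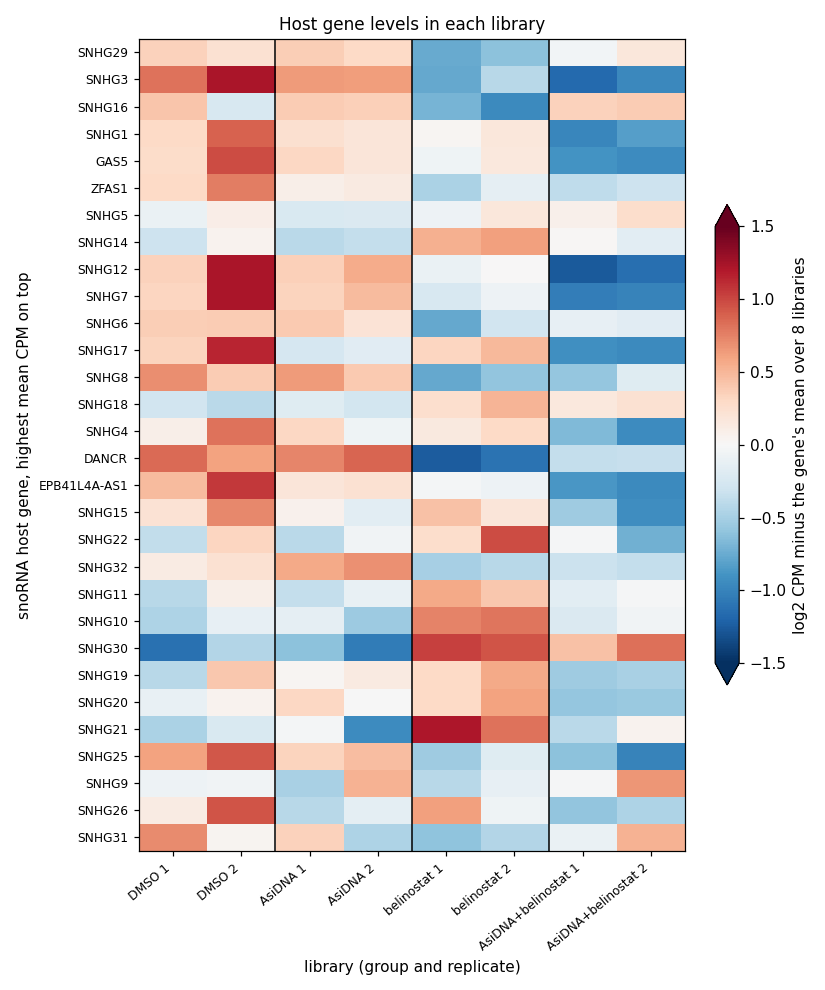
Levels of the 30 tested host genes (rows, highest mean CPM on top) in the 8 libraries (columns). Colour gives log2 CPM minus the gene's own mean over the libraries, red above and blue below it. The combination libraries are blue for most rows, SNHG3, SNHG12, SNHG7 and SNHG17 are dark red in DMSO replicate 2, and SNHG30 is red in the 4 libraries with belinostat.

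In DMSO cells the host RNAs spanned a wide range. Corrected for the length of the annotated exons, SNHG29 stood highest at 72.0 ± 4.05 CPM per kb (SD, n = 2), followed by SNHG3 at 70.6 ± 14.4 and ZFAS1 at 63.9 ± 14.4. These means lay within the spread of the libraries. SNHG1 followed at 47.1 ± 13.4 CPM per kb and GAS5 at 42.8 ± 14.4. SNHG14, the long imprinted transcript of the Prader-Willi region that carries 84 of the 144 annotated nested snoRNA genes, reached 75.7 ± 13.6 CPM but 1.75 ± 0.313 CPM per kb over its 43324 exon bases. SNHG20 was lowest per length at 0.845 ± 0.0707 CPM per kb. Several hosts share exon bases with another gene, which leaves their counts uncertain. Among them, SNHG3 (with RCC1), SNHG20 (with SEC14L1), SNHG14 (with SNRPN) and SNHG4 (with MATR3) share them on the same strand, so no strand setting separates the reads. ZFAS1 (with ZNFX1), SNHG12 (with TRNAU1AP), SNHG10 (with GLRX5), SNHG14 (with UBE3A) and SNHG4 (with SIL1) share them with a gene on the opposite strand. For these pairs the strand setting of the counting matters, and it is not given in the sources used here.

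Belinostat against DMSO shows what the deacetylase inhibitor did in cells without AsiDNA. Of the 30 tested host genes, 14 fell and 6 rose, and 10 were not called. Of all 14741 genes, 27.6% were called lower and 29.8% higher, beside 46.7% and 20% of the host genes. The difference between these shares was not tested, and with scaling by library size only, 3583 of all genes were higher and 4805 lower beside 5 and 14 host genes. The median host gene changed by -0.46 on the log2 scale and the median of all genes by 0.06. The largest falls were in DANCR, SNHG3, SNHG8 and SNHG25, and the largest rises in SNHG30, SNHG21 and SNHG10.

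Among hosts of box H/ACA snoRNAs, 5 of 11 fell and 1 rose (27.6% and 29.8% of all genes). DANCR, the host of SNORA26 and known as a suppressor of differentiation in progenitor cells, lies on chromosome 4 at 52712404 to 52720351, plus strand (GRCh38, GENCODE 29, as for all positions of genes here). It measured 33.6 and 28.1 CPM in DMSO and 7.84 and 8.62 CPM with belinostat. The groups did not overlap, and the change was -1.91 ± 0.18, a 3.76-fold fall (edgeR adjusted p = 1.32e-06). SNHG3, on chromosome 1 at 28505980 to 28510892, plus strand, is the host of SNORA73A and SNORA73B. It measured 246.8 and 330.1 CPM in DMSO and 82.9 and 105.6 CPM with belinostat, again without overlap, a change of -1.62 ± 0.16. SNHG8 fell by 1.23, SNHG7 by 1.00 and EPB41L4A-AS1, the host of SNORA13, by 0.85. SNHG11, the host that rose, measured 9.47 and 13.4 CPM in DMSO and 18.8 and 16.7 CPM with belinostat, a change of 0.64 ± 0.21. SNHG17, SNHG4, SNHG15, SNHG9 and SNHG31 were not called, with changes between -0.93 (SNHG31) and -0.17 (SNHG15).

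Among hosts of box C/D snoRNAs, 7 of 13 fell and 3 rose (27.6% and 29.8% of all genes). SNHG29, on chromosome 17 at 16438822 to 16478678, plus strand, had the highest mean CPM over all libraries. It measured 281.5 and 260 CPM in DMSO and 131.8 and 145.5 CPM with belinostat, a change of -0.97 ± 0.12. SNHG16, on chromosome 17 at 76557766 to 76565348, plus strand, measured 176.6 and 112.2 CPM in DMSO and 81.2 and 67.9 CPM with belinostat, a change of -0.95 ± 0.18. Neither gene's groups overlapped. SNHG6 fell by 0.90, ZFAS1 by 0.85 and SNHG32 by 0.64. GAS5, a growth-arrest transcript that can bind the glucocorticoid receptor, lies on chromosome 1 at 173863900 to 173868882, minus strand. It measured 118.5 and 192.5 CPM in DMSO and 93.5 and 109.3 CPM with belinostat, a change of -0.62 ± 0.18. SNHG1, on chromosome 11 at 62851988 to 62855914, minus strand, measured 141.4 and 212.6 CPM in DMSO and 118.1 and 129.6 CPM with belinostat, a change of -0.52 ± 0.16. In both genes the DMSO libraries lay farther apart than the gap between the groups, and without DMSO replicate 2 GAS5 changed by -0.26.

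SNHG30, on chromosome 17 at 35568109 to 35574843, plus strand, rose most of all hosts. It measured 4.43 and 7.10 CPM in DMSO and 19.6 and 18.4 CPM with belinostat, a change of 1.72 ± 0.25 and a 3.28-fold rise (edgeR adjusted p = 6.84e-05). SNHG18 rose by 0.72 and SNHG14 by 0.69, and SNHG5, SNHG19 and SNHG26 were not called. SNHG12 and SNHG25, which carry snoRNAs of both classes, fell by 0.89 and 1.14. Of the 4 hosts of scaRNAs none fell. SNHG10 measured 7.96 and 10.1 CPM in DMSO and 18.4 and 19.3 CPM with belinostat, a change of 1.05 ± 0.21. SNHG21 rose by 1.38, and SNHG22 (0.63 ± 0.29) and SNHG20 (0.47 ± 0.27) were not called. Without DMSO replicate 2, SNHG1 changed by -0.22 and was no longer called (edgeR adjusted p = 0.0582), and SNHG19 and SNHG22 were called higher in addition. The falls of SNHG12, SNHG7 and EPB41L4A-AS1 were called but smaller without that library, at -0.41, -0.51 and -0.55, and that of SNHG16 was -0.59 without DMSO replicate 1. Without belinostat replicate 1, GAS5, SNHG1, SNHG11, SNHG21 and SNHG25 were not called (edgeR adjusted p from 0.0837 to 0.213). SNHG11 was also lost without DMSO replicate 1, belinostat replicate 2 or either combination library, at adjusted p from 0.0599 to 0.0818 in edgeR's test, and SNHG17 and SNHG4 were called lower in addition without DMSO replicate 1.

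**Figure D2:**
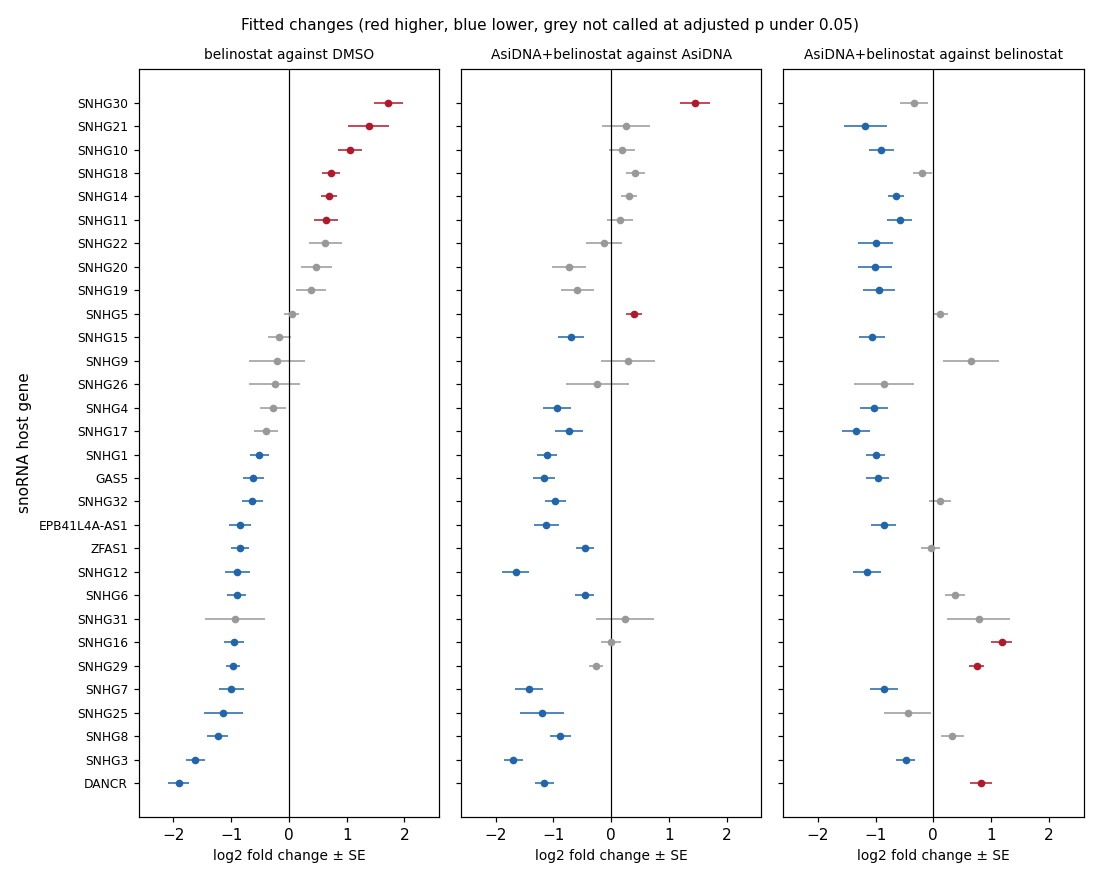
Log2 fold changes of the 30 tested host genes (rows, ordered by the belinostat change) in 3 comparisons, points with standard errors as bars. Red was called higher, blue lower, grey not called at an adjusted p under 0.05. With belinostat 14 are blue and 6 red, and in the right panel SNHG16, SNHG29 and DANCR are the 3 red points beside 16 blue ones.

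Long-term AsiDNA against DMSO gave no called host gene in edgeR's test, against 0.0204% of all genes called lower and 0% called higher. At an unadjusted p under 0.05, 7 host genes were lower and 1, SNHG32, was higher. The share of all genes at that threshold was not worked out, so these counts may not be particular to the hosts. DESeq2 called 1 host gene, SNHG17, beside 25 lower and 8 higher of 12454 genes. SNHG17, on chromosome 20 at 38420588 to 38435353, minus strand, carries SNORA71 family members. It measured 32.7 and 57.4 CPM in DMSO and 21.8 and 23.1 CPM with AsiDNA, a difference of -1.01 ± 0.22 (edgeR adjusted p = 0.181). Its groups did not overlap, with DMSO replicate 2 well above replicate 1. Without DMSO replicate 1, that is with DMSO replicate 2 as the lone control, whose spread was assumed to be that of the other groups, 12 host genes were called lower and 1 higher, beside 2081 lower and 2874 higher of 15679 genes. Without DMSO replicate 2 there were 0 and 0, beside 47 lower and 15 higher of 15471 genes.

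The combination against AsiDNA alone shows the same belinostat treatment in cells kept on AsiDNA. Of 30 host genes, 15 fell and 2 rose, against 21.2% and 21.7% of all genes, with a median of -0.52 for the host genes and 0.02 for all genes. Of the 14 hosts that fell with belinostat against DMSO, 12 were called lower here too. The matching share among all genes was not worked out, so this overlap may not be particular to the hosts. SNHG3 fell most, from 220.2 and 218 CPM with AsiDNA to 62.9 and 72.0 CPM in the combination, a change of -1.70 ± 0.16 (edgeR adjusted p = 3.49e-06). SNHG12, on chromosome 1 at 28578538 to 28583132, minus strand, fell from 65.1 and 74.8 CPM to 21.3 and 23.1 CPM, a change of -1.65 ± 0.23. SNHG7 fell by 1.42, SNHG25 by 1.20, GAS5 by 1.17, EPB41L4A-AS1 by 1.12 and SNHG1 by 1.11, and DANCR fell 2.23-fold. In GAS5 the AsiDNA libraries measured 121.9 and 110.8 CPM and the combination 52.6 and 51.1 CPM. In SNHG1 they measured 136.4 and 131.4 CPM against 58.8 and 64.9 CPM. The replicates of each group lay close together in both genes, and the groups were far apart.

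SNHG29 and SNHG16, which had fallen with belinostat in the absence of AsiDNA, were not called in this comparison in the fit of all libraries. SNHG16 measured 172.6 and 169.7 CPM with AsiDNA and 168.3 and 172.1 CPM in the combination, a difference of -0.01 ± 0.17. SNHG29 measured 286.2 and 273.8 CPM against 216.6 and 249.2 CPM, a difference of -0.27 ± 0.12 (edgeR adjusted p = 0.0973). Its groups did not overlap, and it was called lower without either DMSO library (edgeR adjusted p = 0.00418 and 0.0036), with only the groups compared (0.000761) and with library size only (0.0101). SNHG30 rose by 1.45 ± 0.27 and SNHG5 by 0.40 ± 0.14. Without AsiDNA replicate 1 or combination replicate 2 the count of falls was 9, and SNHG15, SNHG17, SNHG25, SNHG4, SNHG6, ZFAS1 and SNHG5 lost their calls (edgeR adjusted p from 0.0674 to 0.273). Without AsiDNA replicate 2 or combination replicate 1 the falls numbered 10 and 11 and the same genes other than SNHG4, and in the second fit other than SNHG15 too, were lost. In each of these 4 fits fewer host genes rose, and fewer of all genes were called lower or higher too. Without either DMSO library more host genes and more of all genes were called.

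The combination against belinostat alone shows how the cells kept on AsiDNA differed under the same inhibitor. It shares the belinostat libraries with belinostat against DMSO, so opposite calls in these comparisons are not independent of each other. Here 16 host genes were lower and 3 higher, against 21.4% and 22% of all genes, with a median of -0.61 for the host genes and -0.01 for all genes. Along with SNHG17, SNHG12 and SNHG1, the lower genes included all 4 scaRNA hosts. SNHG17 measured 32.4 and 36.2 CPM with belinostat and 13.7 and 13.4 CPM in the combination, a difference of -1.34 ± 0.24. SNHG12 measured 47.5 and 51.2 CPM against 21.3 and 23.1 CPM, a difference of -1.15 ± 0.24. SNHG1 was lower by 1.00 ± 0.17 and GAS5 by 0.97 ± 0.19, and in both the combination libraries lay at about the midpoint between 0 and the belinostat libraries. SNHG10 measured 18.4 and 19.3 CPM with belinostat and 9.49 and 10.6 CPM in the combination, a difference of -0.90 ± 0.22, which left it within the range of the DMSO and AsiDNA libraries or just above. SNHG21, SNHG14 and SNHG11, which had also risen with belinostat, were lower by 1.18, 0.64 and 0.58.

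The 3 higher genes, SNHG16, SNHG29 and DANCR, had all fallen with belinostat alone, in a comparison that shares the belinostat libraries. SNHG16 was higher by 1.19 ± 0.18 (edgeR adjusted p = 0.000492), and its combination libraries, at 168.3 and 172.1 CPM, lay between DMSO replicate 2 (112.2 CPM) and DMSO replicate 1 (176.6 CPM). DANCR measured 7.84 and 8.62 CPM with belinostat and 14.5 and 14.6 CPM in the combination, a difference of 0.82 ± 0.19, and stayed below every DMSO and AsiDNA library. SNHG29 was higher by 0.75 ± 0.12. Without any 1 of the combination or belinostat libraries fewer host genes were called lower, and fewer of all genes were too. SNHG1, GAS5, SNHG12, SNHG17, SNHG16, SNHG29 and DANCR kept their calls in every alternative fit run. SNHG3, SNHG4, SNHG7, SNHG10, SNHG11, SNHG14, SNHG15, SNHG19, SNHG20, SNHG21, SNHG22 and EPB41L4A-AS1 lost theirs in at least 1 of them (edgeR adjusted p up to 0.392 when a library was left out). Without belinostat replicate 2, SNHG3 differed by -0.24 and SNHG22 by -0.56.

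**Figure D3:**
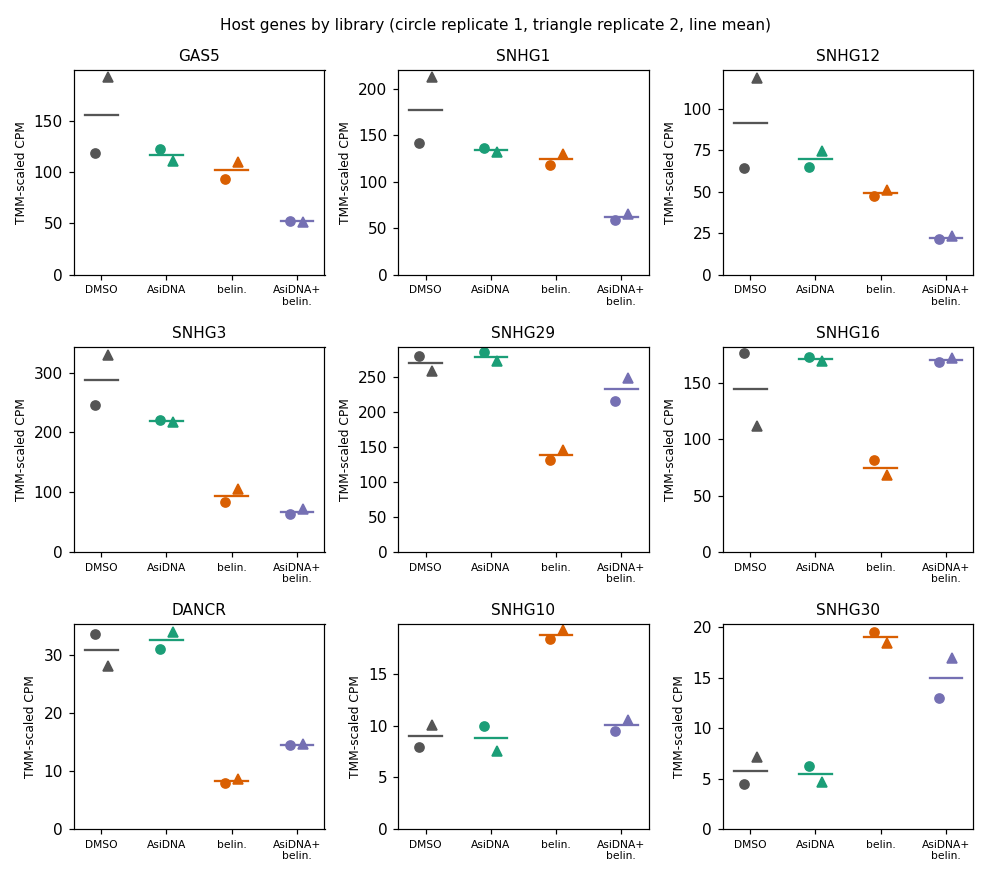
CPM of 9 host genes in each library, by group, with replicate 1 as a circle, replicate 2 as a triangle and a line at the group mean; each vertical axis starts at 0. GAS5, SNHG1 and SNHG12 are lowest in the combination, SNHG29, SNHG16 and DANCR are lowest with belinostat alone, and SNHG30 is higher in the 4 libraries with belinostat than in the other 4.

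The combination against DMSO had 15 host genes lower and 2 higher, against 23.7% and 24.3% of all genes, and the median host gene differed by -0.55. It shares its libraries with the comparisons above. SNHG3 was lower by 2.09 ± 0.16 and SNHG12 by 2.04 ± 0.23, followed by SNHG7 (1.86 ± 0.23), SNHG17 (1.74 ± 0.23) and EPB41L4A-AS1 (1.71 ± 0.20) as sizes of a fall. SNHG30 was higher by 1.38 ± 0.26 and SNHG18 by 0.53 ± 0.16. SNHG9, SNHG26 and SNHG31, each under 4 CPM in all libraries, were called in no comparison. Without either combination library SNHG18, SNHG32 and SNHG6 lost their calls (edgeR adjusted p from 0.0564 to 0.12). SNHG32 was also lost without DMSO replicate 2 or either AsiDNA library, at adjusted p from 0.0537 to 0.0568 in edgeR's test.

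Whether the belinostat response differed between cells with and without AsiDNA was tested by the interaction of both treatments. In edgeR's test 0 host genes passed, against 0.00678% of all genes called lower and 0% higher. At an unadjusted p under 0.05 there were 5 host genes lower and 3 higher, and the share of all genes at that threshold was not worked out. DESeq2 called 2 host genes, SNHG29 (0.72, adjusted p = 0.0107) and SNHG16 (0.96, adjusted p = 0.0144), beside 476 higher and 138 lower of 8739 genes. In edgeR's test SNHG29 had an interaction of 0.70 ± 0.17 (adjusted p = 0.0776) and SNHG16 of 0.94 ± 0.25 (adjusted p = 0.0849). SNHG20 was higher with belinostat than in DMSO and lower in the combination than with AsiDNA in every library, and its interaction was -1.20 ± 0.40 (edgeR adjusted p = 0.122). The result rested on the DMSO libraries. Without DMSO replicate 2, 13 host genes were called lower and 3 higher, beside 2223 and 3135 of 15471 genes, with GAS5 at -0.92, SNHG1 at -0.90, SNHG16 at 1.25 and SNHG29 at 0.78. Without DMSO replicate 1, 0 were called lower and 4 higher, SNHG16, SNHG29, SNHG5 and ZFAS1, with SNHG16 at 0.58 and SNHG29 at 0.65, beside 369 lower and 651 higher of 15679 genes. SNHG16 and SNHG29 were thus called higher whichever DMSO library was left out, the lone one being assumed to vary like the other groups.

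The table also lists the nested snoRNA genes, which tells how far the snoRNAs themselves could be read. GENCODE 29 places 144 of them in 30 of the hosts. It lists none in GAS5, whose box C/D snoRNAs are therefore not described. The 50 that overlap an annotated exon of their host held 10 counts in all, and the 94 that do not held 12557, of which SNORA73B alone took 8844. How reads lying in both a snoRNA gene and a host exon were counted was not checked. The few counts of the 50 therefore do not show that those snoRNAs were absent. Of the 94, 11 passed the filter on low counts and were tested. The sequences of 3 of them, on which the comparison with their hosts turns, are given here from the GENCODE 29 transcripts (GRCh38), written as DNA. In the box C/D snoRNAs the capitals mark the C box and the last D box, the motifs bound by the core proteins, and in SNORA73B the ACA box near the 3′ end.
SNORD12B, in ZFAS1, chr20:49280319-49280409, plus strand: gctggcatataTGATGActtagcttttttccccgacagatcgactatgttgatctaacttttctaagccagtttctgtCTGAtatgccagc
SNORD12C, in ZFAS1, chr20:49278940-49279028, plus strand: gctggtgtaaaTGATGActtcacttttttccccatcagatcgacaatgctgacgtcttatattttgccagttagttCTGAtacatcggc
SNORA73B, in SNHG3, chr1:28508559-28508762, plus strand: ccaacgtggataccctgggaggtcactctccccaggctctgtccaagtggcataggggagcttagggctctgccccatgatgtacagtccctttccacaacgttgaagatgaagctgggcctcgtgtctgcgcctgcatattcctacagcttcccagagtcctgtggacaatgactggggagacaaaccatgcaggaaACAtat

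Counts of the ZFAS1 snoRNA genes fell further than those of their host. Reads in nested snoRNA genes may come from the snoRNAs or from unspliced host RNA, which the counts cannot tell apart. SNORD12C measured 7.36 and 13.9 CPM in DMSO, 7.71 and 5.81 with AsiDNA, 1.99 and 1.52 with belinostat and 1.17 and 1.02 in the combination. It fell by 2.57 ± 0.38 with belinostat (edgeR adjusted p = 7.57e-05), where ZFAS1 fell by 0.85. In AsiDNA cells given belinostat it fell by 2.63 ± 0.44 relative to AsiDNA alone, and ZFAS1 by 0.45. SNORD12B measured 9.37 and 17.5 CPM in DMSO, 7.47 and 7.11 with AsiDNA, 2.81 and 3.89 with belinostat and 2.16 and 0.639 in the combination, falls of 2.03 ± 0.38 and 2.45 ± 0.48. In both snoRNAs every library with belinostat lay below every library without it. The difference between host and snoRNA was not itself tested. SNORD99, in SNHG12, fell by 2.30 ± 0.57 with belinostat, on 9 counts against 63. In the combination it had 3 counts against 24 with AsiDNA, a ratio of 0.137 with an exact 95% interval of 0.0265 to 0.452 for counting error only, and its call there was lost without combination replicate 1 (edgeR adjusted p = 0.086).

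SNORA73B, whose RNA acts in the cutting of the ribosomal RNA precursor, measured 135 and 191 CPM in DMSO and 132 and 144 CPM with belinostat, a difference of -0.24 ± 0.16 (edgeR adjusted p = 0.195), beside the fall of 1.62 in SNHG3. Without DMSO replicate 1 it was called lower at -0.48 (edgeR adjusted p = 5.93e-05), and without DMSO replicate 2 the difference was -0.003 (adjusted p = 0.981). SCARNA13, in SNHG10, measured 17.4 and 23.3 CPM with belinostat and 33.6 and 34.1 CPM in the combination, higher by 0.75 ± 0.19 (edgeR adjusted p = 0.00695), while SNHG10 was lower by 0.90. This call was lost without belinostat replicate 1, at 0.59 (edgeR adjusted p = 0.0653). SNORA71B and SNORA71C, in SNHG17, were lower by 2.19 and 1.70 in the combination than with belinostat, and SNHG17 by 1.34. Without combination replicate 2 neither snoRNA was called (edgeR adjusted p = 0.0869 and 0.17), and SNORA71C was also lost without combination replicate 1 or either belinostat library, at adjusted p from 0.113 to 0.12. SNORD60, in SNHG19, was too low to be tested, with 15 counts in DMSO and 0 in either group with belinostat, at least 3.58-fold lower with belinostat when 3 counts over the group are taken as the floor.
In all, 3 of the 11 tested snoRNA genes fell with belinostat and 0 rose, a share of falls close to the 27.6% of all genes. In the combination 5 fell and 0 rose against AsiDNA (21.2% and 21.7% of all genes), and 2 were lower and 1 higher than with belinostat (21.4% and 22%). Against DMSO 8 were lower in the combination and 1 higher (23.7% and 24.3% of all genes), with a median of -2.37. The differences from the shares of all genes were not tested. The others tested were SNORA71A, SNORA71D, SNORA13 and SNORD104.

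**Figure D4:**
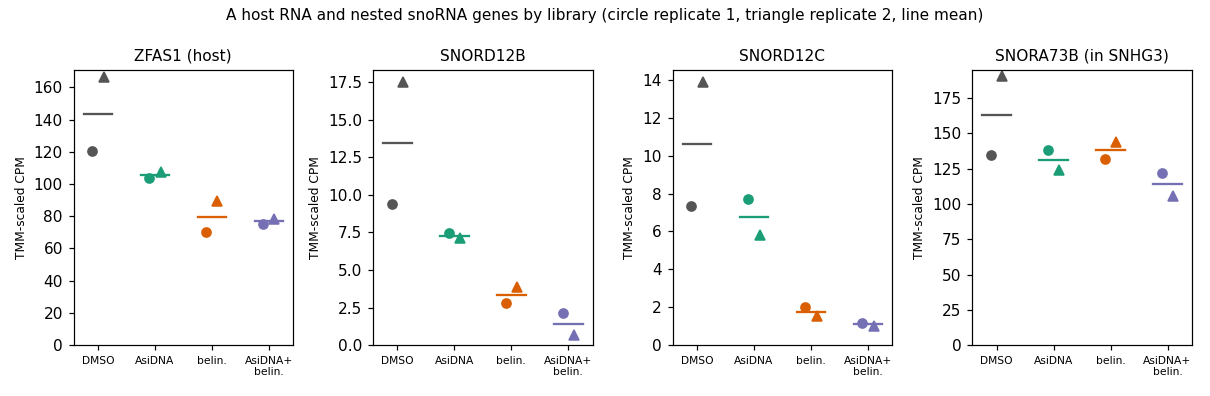
CPM of ZFAS1, of SNORD12B and SNORD12C nested in it, and of SNORA73B nested in SNHG3, in each library by group, with replicate 1 as a circle, replicate 2 as a triangle and a line at the group mean. SNORD12B and SNORD12C are lower in all 4 libraries with belinostat than in the other 4, while the SNORA73B values with belinostat (132 and 144 CPM) lie within the range of DMSO (135 and 191 CPM) or just below it.

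Many other snoRNAs lie in introns of protein-coding genes, and 39 such hosts from a list written for this description were tested for comparison. Most of the 39 encode ribosomal proteins or translation factors, and others, such as HSPA8, NCL, TAF1D and AP1G1, do not. How far the results of the list rest on its ribosomal protein genes was not tested. With belinostat 32 of them fell and 1, PTCD3, rose (27.6% and 29.8% of all genes), with a median of -0.74. Of the 30 SNHG and related hosts 14 fell and 6 rose, and SNHG32 among them is itself annotated as protein-coding in GENCODE 29. NCL, the nucleolar protein nucleolin, fell from 659.4 and 533.8 CPM in DMSO to 118.3 and 129.6 CPM, a change of -2.27 ± 0.14 (edgeR adjusted p = 5.37e-08). EIF4G2 fell by 1.82 and EEF1B2 by 1.47. In the combination against belinostat, which shares the belinostat libraries, 30 of the 39 were higher and 3 lower (22% and 21.4% of all genes). Their median was 0.70, while 16 of the 30 SNHG and related hosts were lower and 3 higher. NCL was higher by 0.76 ± 0.13 and EEF1B2 by 0.97 ± 0.13 in that comparison. SNHG16, SNHG29 and DANCR moved in the direction of most protein-coding hosts. No test of the difference between both kinds of host was made.

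**Figure D5:**
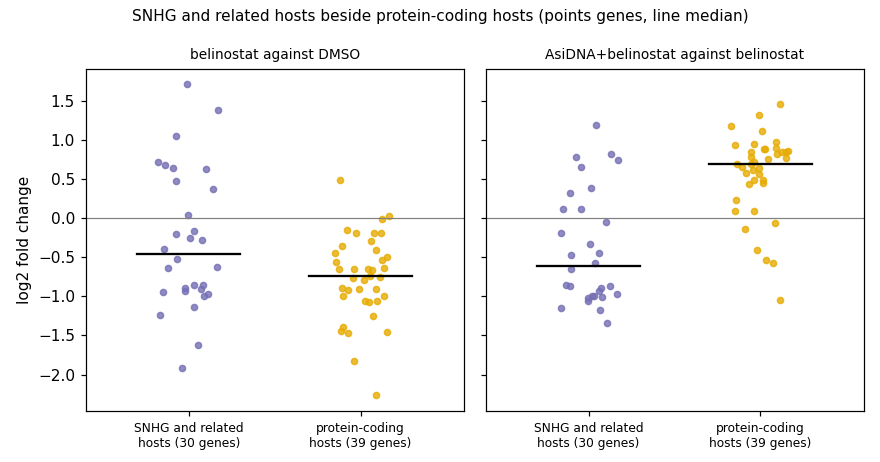
Log2 fold changes of the 30 SNHG and related hosts and the 39 listed protein-coding hosts, most of them genes for ribosomal proteins or translation factors. Points are genes and lines are medians, with belinostat against DMSO on the left and the combination against belinostat on the right. On the left both medians lie below 0 (-0.46 and -0.74), and on the right the SNHG and related hosts have a median of -0.61 and the protein-coding hosts of 0.70.

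The proteins that bind the snoRNAs were read from lists written for this description. Of the 4 core proteins of box C/D particles, NOP56, SNU13 and NOP58 fell with belinostat and FBL, the methyltransferase fibrillarin, was not called. NOP56 measured 96.0 and 113.5 CPM in DMSO and 44.5 and 56.1 CPM with belinostat, a change of -1.07 ± 0.14, and was lower again in the combination than with belinostat by 0.54, as was NOP58 by 0.38. FBL and SNU13 were higher there, by 0.90 and 0.81. Of the 4 box H/ACA core proteins, DKC1, the pseudouridine synthase dyskerin, fell by 1.46 ± 0.17 and NHP2 by 0.96, and GAR1 and NOP10 were not called. Among 19 factors of particle assembly and snoRNA maturation 6 fell and 4 rose, near the 27.6% and 29.8% of all genes, with falls in NOLC1 (-1.11) and PARN (-0.73) and a rise in SHQ1 (0.74). In the combination against AsiDNA 6 of these 19 fell and 3 rose (21.2% and 21.7% of all genes).

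Factors of nonsense-mediated decay moved in both directions with belinostat, 5 lower and 3 higher of 14, again near the shares of all genes. SMG5 rose by 0.87 and SMG6 by 0.73, and RBM8A and MAGOH, subunits of the exon junction complex, fell by 1.13 and 0.93. In the combination 8 of 14 were lower and 1 higher than with AsiDNA (21.2% and 21.7% of all genes). Against belinostat 6 were lower and 3 higher (21.4% and 22% of all genes). Of 10 mRNAs known as targets of this decay, 6 rose and 0 fell with belinostat (29.8% and 27.6% of all genes). MAP3K14 rose by 1.71 ± 0.19 and DDIT3 by 1.24 ± 0.21. In the combination 7 of the 10 were lower and 1 higher than with belinostat (21.4% and 22% of all genes). Of 11 genes that control the translation of pyrimidine-tract mRNAs or belong to growth signalling, 7 fell with belinostat and 0 rose (27.6% and 29.8% of all genes), with MYC at -1.08 ± 0.12 and LARP1, which binds the tract, at -0.69 ± 0.13. MALAT1 and NEAT1 rose by 3.17 ± 0.32 and 2.65 ± 0.43. With AsiDNA against DMSO 0 genes of the lists in these paragraphs were called by edgeR's test.

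Of the hosts, 8 have a protein-coding gene that starts on the opposite strand within 1000 bases of their own start. With belinostat 5 of these neighbours fell and 1 rose, against 27.6% and 29.8% of all genes. Beside the fall of SNHG1, SLC3A2, the neighbour of SNHG1 and a subunit of amino acid transporters, fell by 0.67. TRAF7, the neighbour of SNHG19, rose by 0.56, and BARD1, the neighbour of SNHG31 and partner of BRCA1, fell by 1.40 ± 0.13 where SNHG31 was not called.

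A start of transcription at a C followed by pyrimidines is the mark of transcripts whose translation follows growth signals, so the start sites of the hosts were read. RefSeq promoter entries (GRCh38.p14) existed for 28 of the 32 genes. In 7 of them, 25%, the base at the start was a C followed directly by at least 4 bases that were each C or T on the gene's strand, against 4.07% of all 35116 entries. The entry of GAS5 has no such run at its listed start base. In the lines below the capitals mark that run from the start base, after 20 bases of upstream sequence.
SNHG12, chr1:28581849-28581893, minus strand: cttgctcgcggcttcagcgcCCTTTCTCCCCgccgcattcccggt
SNHG18, chr5:9546180-9546224, plus strand: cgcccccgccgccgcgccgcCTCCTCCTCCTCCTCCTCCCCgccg
SNHG19, chr16:2155334-2155378, minus strand: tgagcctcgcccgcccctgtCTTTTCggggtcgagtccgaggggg
SNHG32, chr6:31834896-31834940, plus strand: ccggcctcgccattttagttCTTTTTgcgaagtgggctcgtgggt
SNHG4, chr5:139274081-139274125, plus strand: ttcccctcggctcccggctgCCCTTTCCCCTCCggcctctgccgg
SNHG5, chr6:85678709-85678753, minus strand: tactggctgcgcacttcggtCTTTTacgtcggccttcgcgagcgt
ZFAS1, chr20:49278622-49278666, plus strand: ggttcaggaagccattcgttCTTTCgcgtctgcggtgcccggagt

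The 7 genes did not share 1 response. With belinostat SNHG12, SNHG32 and ZFAS1 fell, SNHG18 rose, and SNHG4 (-0.28 ± 0.22), SNHG5 (0.05 ± 0.13) and SNHG19 (0.38 ± 0.26) were not called. SNHG5 measured 86.2 and 99.5 CPM in DMSO and 87.7 and 104.4 CPM with belinostat, the smallest difference in size among the 30 tested hosts. The run depends on the exact start base. The RefSeq start lay 1259 bases downstream of the GENCODE 29 start in SNHG12, 464 in ZFAS1, 308 in SNHG32 and 15 in SNHG5, at the same base in SNHG18 and SNHG19 and 1 base upstream in SNHG4. A match describes the letters at this position and does not show that the start is used in U87 cells.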

How the data were processed

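Stranded libraries were made from total RNA of U87 cells with a kit that removes ribosomal RNA (Ribo-Zero Gold), per the labels' protocols. Cutadapt 1.16, STAR 2.7.0 with GRCh38 and featureCounts 1.6.3 of the Subread package made the deposited values, which are raw counts per gene, per the submitters' processing notes. Neither the annotation release nor the strand setting is given in the sources used here. A name was found for 58876 of 58884 identifiers, and GENCODE 29 gave positions and exon lengths.

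All statistics were computed in R 4.3.3 with Python 3.11.15. Genes passing filterByExpr of edgeR 4.0.16 (14741) were scaled with TMM factors and fitted in 1 model over 8 libraries with 1 coefficient a group, which left 4 residual degrees of freedom, and tested with the quasi-likelihood F-test. P-values were adjusted by Benjamini-Hochberg over all tested genes. Standard errors are the absolute log2 fold change divided by the square root of F. Alternatives were RLE factors, library size only, DESeq2 1.42.0, a replicate block, other filters, a stricter threshold (adjusted p under 0.01), fits of only the groups compared and leaving out each library. On simulated data for belinostat against DMSO with 14237 genes, 63% of 2-fold and 90% of 4-fold changes were called, with 6 unchanged genes called. The host genes, lists and tests were chosen with earlier results of these data known. The rule accounts for every host gene and names in each other list the genes with the smallest adjusted p against DMSO. PTCD3 and individual snoRNAs were named after their values were seen. One gene with an SNHG28 name only in GENCODE 29, which held 171 counts in all, was left out. One overlap of a host with another gene is not reported here.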

Additional observations from a re-analysis of the deposited data

How the results depend on the processing

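Over 15 alternatives 0 of the 30 tested host genes reversed a called change in any comparison, and 15 of 20 calls for belinostat, 10 of 17 for the combination against AsiDNA, 7 of 19 against belinostat and 14 of 17 against DMSO were kept under all of them. Scaling by library size only moved the median of all genes from 0.06 to -0.08 with belinostat, from 0.02 to -0.12 in the combination against AsiDNA and from -0.01 to -0.20 against DMSO, and all genes then split into 3583 higher and 4805 lower with belinostat (main 4395 and 4071; no filter 3793 and 4856), into 2569 higher and 3962 lower (main 3199 and 3120) in the combination against AsiDNA and into 2685 and 4644 (main 3586 and 3498) against DMSO. Host genes called lower with AsiDNA numbered 1 by DESeq2 and 2 with no filter on low counts, and those higher in the interaction 2 by DESeq2, with no filter and with a filter of 1 CPM in 2 libraries. Rises in the combination against AsiDNA numbered 1 with library size only, no filter or an adjusted p under 0.01 and 4 with only the groups compared, and against DMSO 1 in each of these 4 settings. Falls against belinostat numbered 9 at an adjusted p under 0.01. Leaving out 1 library gave 0 to 12 falls and 0 to 1 rises with AsiDNA, 9 to 18 falls and 1 to 4 rises in the combination against AsiDNA, 5 to 16 falls and 3 to 4 rises against belinostat, 13 to 18 falls and 1 to 3 rises against DMSO, and 0 to 13 lower and 0 to 4 higher in the interaction. Counts of calls over all genes changed in these fits too. The cause was not tested. Same-numbered replicates did not deviate together (correlations from -0.366 to 0.204 over 8903 genes), so the replicate numbers were not taken as pairs; with the replicate block the host genes called with belinostat stayed at 14 lower and 6 higher and no other count changed. SNHG9, SNHG26 and SNHG31, under 4 CPM in every library, had standard errors of 0.45 to 0.52 on the log2 scale with belinostat.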
